A study of Mus musculus with 11 samples.

Results

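The genes described here encode collagens, laminins and the proteins that join them in basement membranes and in the interstitial matrix, in mouse T cell acute lymphoblastic leukaemia (T-ALL) with or without Utx. They were taken by symbol from the deposited table: every gene named as a collagen chain (Col, number, a, number), a laminin chain, a nidogen, a fibrillin, a fibulin or a thrombospondin, plus Fn1 and Sparc. This gave 68 of the 37224 rows. The leukaemias arose in recipient mice from cKit-positive blood progenitors of the C57/BL6 background that were given active intracellular Notch1 (Notch1-IC) by retrovirus, which all samples therefore share. Utx, listed as Kdm6a, removes methyl marks from histone H3 lysine 27. The labels list 5 knockout samples from Utx-/Y donors (2 of bone marrow, 3 of spleen) and 6 wild-type samples from Utx+/+ or Utx+/Y donors (2 of bone marrow, 4 of spleen). Some are second runs of another sample: 1 marrow sample per genotype, and for wild-type also 1 of spleen. Genotype and donor sex cannot be told apart in this design, because wild-type donors could be female and knockout donors were male. The labels call the cells T-ALL blasts, and the series' design text allows for sorted populations without saying which samples were sorted.

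Collagens are triple helices of alpha chains. Type IV collagen forms the network of basement membranes, the thin sheets under endothelium and around muscle, fat and nerve, while the fibrillar collagens build the ropes of bone, tendon and stroma. Laminins are trimers of an alpha, a beta and a gamma chain that form the second network of a basement membrane, and nidogens tie both networks together. In bone marrow and spleen these proteins surround sinusoids and arterioles and form the reticular scaffold, and they are made mainly by endothelial, reticular and bone-forming cells. T cells touch them through integrins and other receptors and are not known as a main source.

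The deposited values were 1 pooled read count per gene and genotype, summing to 106445530 counts over the knockout leukaemias and 108015222 over the wild-type leukaemias. Below, both terms stand for these pools. No spread between animals could be computed, and pooled values do not tell a gene read in all tumours of a genotype from one read in few. Levels are given as CPM, counts scaled to the pool's total, and ratios as log2 of knockout over wild-type with 0.5 counts added to each pool. The range in brackets after a ratio is an exact 95% Clopper-Pearson interval, which covers counting error only. A gene is called higher or lower with at least 100 combined counts, at least a 2-fold difference and an interval without 0. In bulk RNA, fewer cells of a type and less RNA per cell cannot be told apart. The targeted gene Kdm6a had 1115 counts in knockout leukaemias and 6299 in wild-type leukaemias, a log2 ratio of -2.48 (-2.57 to -2.38), counted along the full length of the gene, since the deleted exons cannot be read out alone here. T cell genes dominated over matrix genes in both pools: Cd3e, a subunit of the T cell receptor complex, stood at 436 CPM in knockout leukaemias and 446 CPM in wild-type leukaemias.

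Matrix genes made up a small part of both pools, and a larger part in knockout leukaemias. All 68 genes together held 30828 counts (290 CPM) in knockout leukaemias and 18952 counts (175 CPM) in wild-type leukaemias, a log2 ratio of 0.72 (0.70 to 0.75). A combined count of at least 100 was reached by 33 genes, 20 to 99 counts by 15, fewer by 15, and 5 had no count in either pool. Among the 33, 17 (51.5%) were called higher in knockout leukaemias, against 11.2% of the 13833 rows of the whole table with that count. Another 4 (12.1%) were called lower, against 5.36% of all those rows, and 12 were neither. The 33 genes had a median log2 ratio of 1.13, against -0.07 over all 13833 rows. The genes called higher were Col18a1, Lamc1, Lama5, Nid2, Nid1, Col3a1, Col5a2, Col14a1, Col6a1, Col6a2, Col6a3, Col8a1, Fbln2, Fbn1, Thbs1, Fn1 and Sparc, and those called lower were Lamb1, Lamb2, Lama3 and Col27a1. Because a gene can reach 100 counts through the pool where it is high, these shares are a description and no test. With a q under 0.05 in the authors' deposited table in place of the interval, 17 were higher and 4 lower again, against 11.2% and 5.39% of all rows. With a minimum of 500 combined counts, 11 were higher and 2 lower, and the share of all rows at that minimum was not computed.

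**Figure D1:**
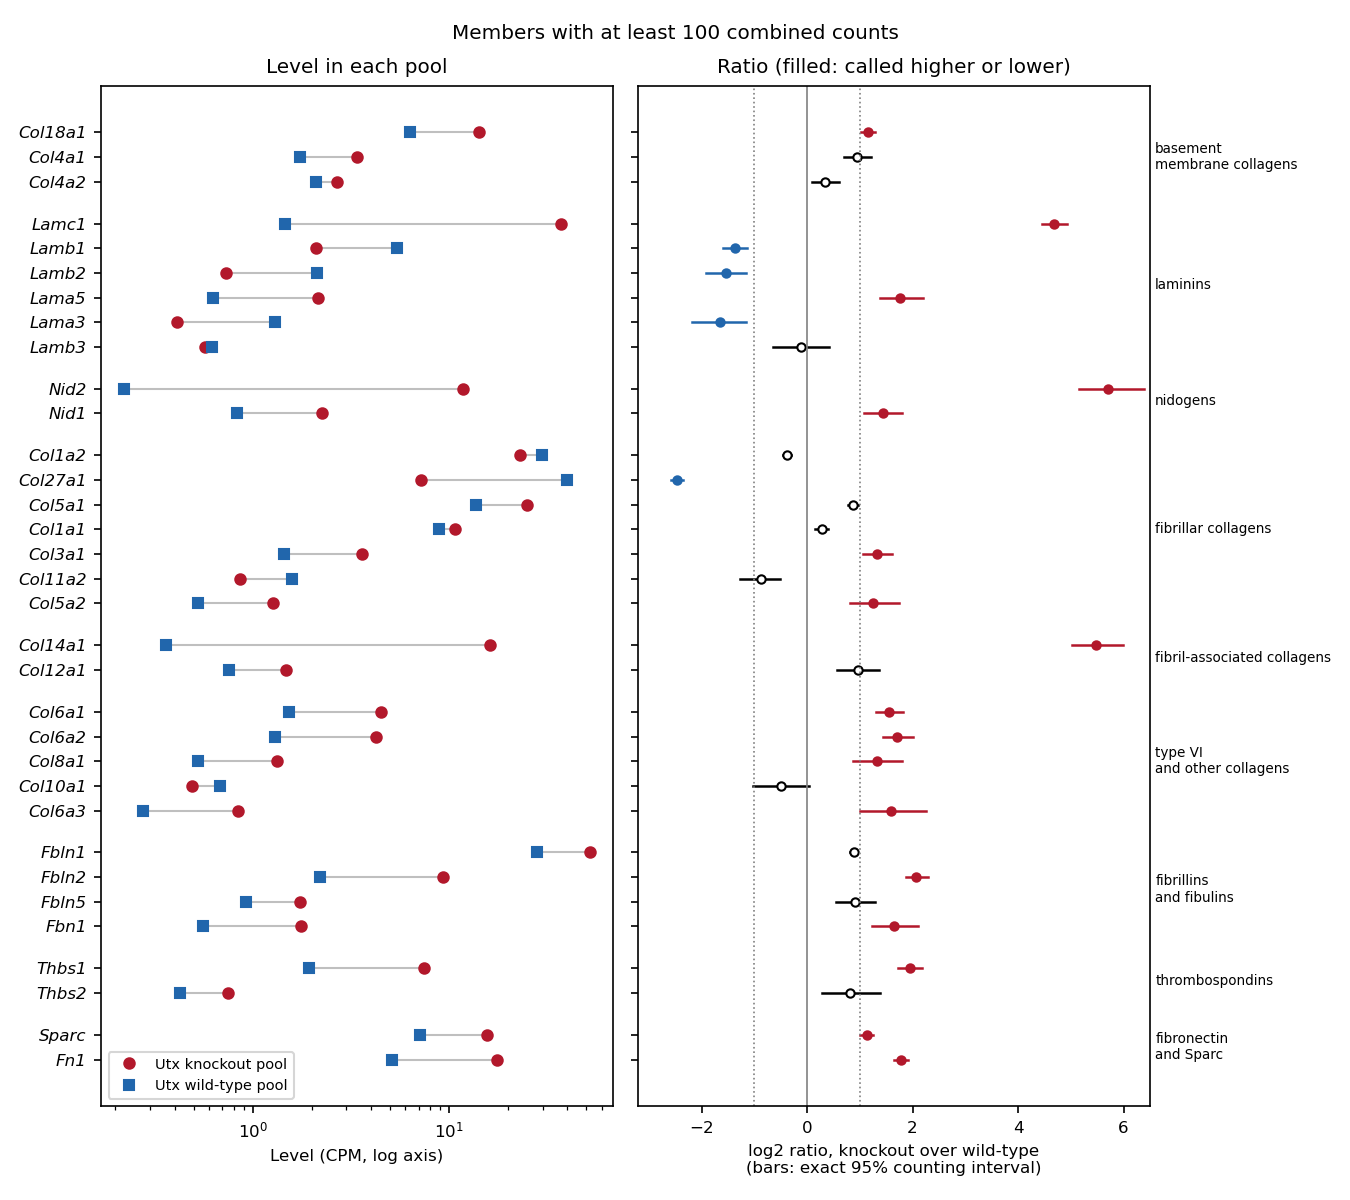
Left, level in CPM on a log axis of each matrix gene with at least 100 combined counts, in the Utx knockout pool (red circles) and the Utx wild-type pool (blue squares). Right, the log2 ratio of knockout over wild-type with its exact 95% counting interval, filled where called (dotted lines mark 2-fold). Nid2, Col14a1 and Lamc1 lie far to the right at 5.70, 5.47 and 4.68, and Col27a1 lies lowest at -2.47.

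Among the basement membrane collagens, Col18a1 was the most abundant and was called higher in knockout leukaemias. It encodes type XVIII collagen, a chain with heparan sulphate that releases endostatin, and had 1510 counts (14.2 CPM) in knockout leukaemias and 687 counts (6.36 CPM) in wild-type leukaemias, a log2 ratio of 1.16 (1.03 to 1.29). Col4a1 and Col4a2 encode the chains of the type IV collagen found in nearly every basement membrane. Col4a1 had 361 counts in knockout leukaemias and 189 in wild-type leukaemias, a ratio of 0.95 (0.70 to 1.22) just under 2-fold. It was called with some other scalings of the pools, at 1.03 with TMM, and not with the upper quartile (0.95). Col4a2 had 286 counts in knockout leukaemias and 228 in wild-type leukaemias, a ratio of 0.35 (0.09 to 0.61) that was not called. The chains of specialised basement membranes were scarce: Col4a3, a chain of kidney and lung basement membranes, had 41 counts in knockout leukaemias and 50 in wild-type leukaemias, Col4a4 had 1 in knockout and 6 in wild-type, Col4a6 had 0 in knockout and 2 in wild-type, and Col4a5 had none. Col15a1, a relative of Col18a1 at the outer face of basement membranes, had 37 counts in knockout leukaemias and 47 in wild-type leukaemias, and its interval (-0.99 to 0.33) held 0.

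The laminin genes split, with 2 called higher and 3 lower among the 6 that had at least 100 counts. Lamc1 (ENSMUSG00000026478, chromosome 1, 153218922 to 153332786 on the minus strand, GRCm38) encodes the gamma chain shared by most laminins. It had 3969 counts (37.3 CPM) in knockout leukaemias and 157 counts (1.45 CPM) in wild-type leukaemias, a 25.6-fold higher level (21.9 to 30.3) and a log2 ratio of 4.68 (4.45 to 4.92). In the order of all 13833 rows by ratio it stood at rank 90 from the top. Its usual beta partners went the other way. Lamb1 had 224 counts in knockout leukaemias and 586 in wild-type leukaemias, a log2 ratio of -1.36 (-1.59 to -1.14). Lamb2, the beta chain of muscle, nerve and vessel laminins, had 78 counts in knockout leukaemias and 229 in wild-type leukaemias, a ratio of -1.53 (-1.92 to -1.16). Lamb3, the beta chain of epithelial laminin, had 61 counts in knockout leukaemias and 67 in wild-type leukaemias, and its interval (-0.64 to 0.41) held 0.

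Of the laminin alpha chains, Lama5, the alpha chain of arterioles and many epithelia, was called higher with 230 counts in knockout leukaemias and 68 in wild-type leukaemias, a log2 ratio of 1.77 (1.38 to 2.19). Lama3, the alpha chain of epithelial laminin, was called lower with 44 counts in knockout leukaemias and 141 in wild-type leukaemias, a ratio of -1.65 (-2.18 to -1.16). Lama4, an alpha chain of vessels, fat and muscle, had too few counts for a call, with 58 in knockout leukaemias and 3 in wild-type leukaemias. Lama2, the alpha chain of muscle and nerve, had 0 counts in knockout leukaemias and 9 in wild-type leukaemias. Lamc3 had 1 count in knockout and 4 in wild-type, and Lama1, the alpha chain of the embryo, had none in either.

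The balance of laminin chain classes therefore differed between the pools. Per kilobase of exon, with lengths from the GENCODE M21 annotation, gamma chains took 86.8% of the summed laminin level in knockout leukaemias and 13.7% in wild-type leukaemias. Beta chains took 7.99% in knockout leukaemias and 72.8% in wild-type leukaemias, and alpha chains 5.21% in knockout leukaemias and 13.5% in wild-type leukaemias. Without Lamc1 the summed laminin counts were 736 in knockout leukaemias and 1111 in wild-type leukaemias, which turns the log2 ratio of the sum from 1.91 to -0.57.

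**Figure D2:**
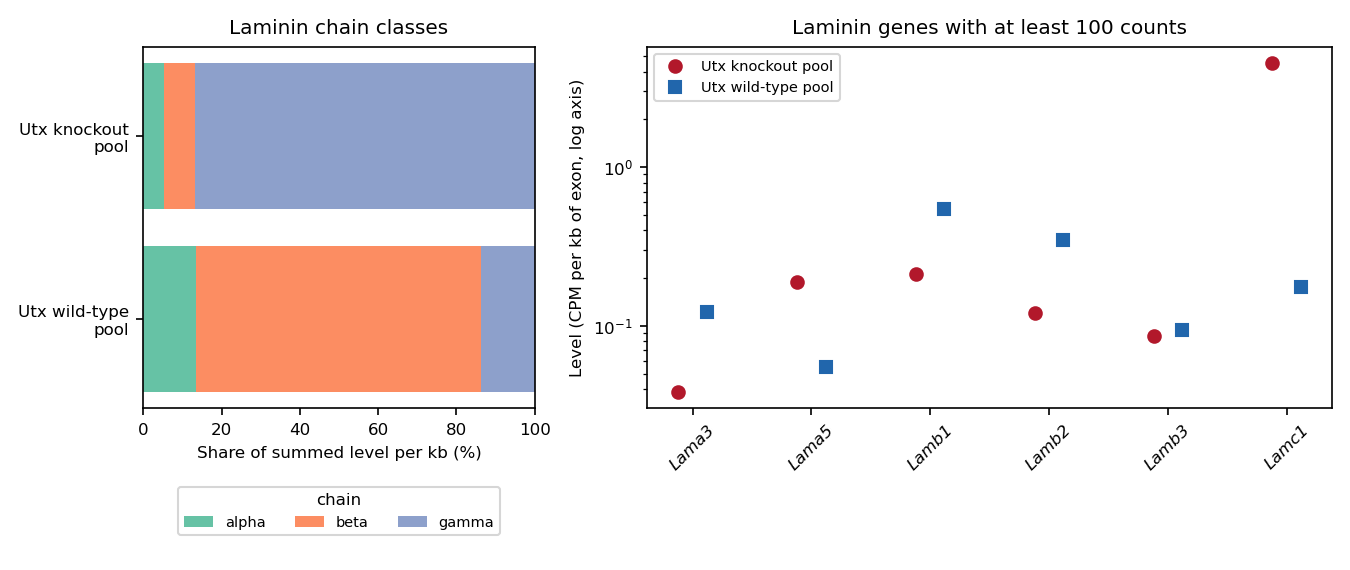
Left, share of the summed laminin level per kilobase of exon taken by alpha, beta and gamma chain genes in the Utx knockout pool (top) and the Utx wild-type pool (bottom). Right, level per kilobase (log axis) of each laminin gene with at least 100 combined counts, where Lamc1 is the highest point in the knockout pool at 4.51 CPM per kb, against 0.176 in the wild-type pool.

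Both nidogen genes were called higher in knockout leukaemias. Nid2 (ENSMUSG00000021806, chromosome 14, 19751265 to 19811787 on the plus strand, GRCm38) had 1256 counts (11.8 CPM) in knockout leukaemias and 24 counts (0.222 CPM) in wild-type leukaemias. This is a 52.0-fold higher level (35.5 to 83.2) and a log2 ratio of 5.70 (5.15 to 6.38), the largest among the 33 genes and rank 55 of 13833. Nid1, the more widely expressed nidogen, had 240 counts in knockout leukaemias and 90 in wild-type leukaemias, a ratio of 1.43 (1.08 to 1.80). The exons of Nid2 share 437 bases, 8.45% of their length, with a gene on the opposite strand (Rtraf, listed as 2700060E02Rik) that had 5041 counts in knockout leukaemias and 6208 in wild-type leukaemias. No source used here says whether counting was by strand, so reads of this stretch may belong to either gene.

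The fibrillar collagens did not share a direction. Col27a1 (ENSMUSG00000045672, chromosome 4, 63214004 to 63334991 on the plus strand, GRCm38), a fibrillar chain known from cartilage, was the only one called lower. It had 765 counts (7.19 CPM) in knockout leukaemias and 4293 counts (39.7 CPM) in wild-type leukaemias, a log2 ratio of -2.47 (-2.58 to -2.36) and rank 126 from the bottom of all rows. Col3a1, the chain of reticular fibres, was called higher with 385 counts in knockout leukaemias and 156 in wild-type leukaemias, a ratio of 1.32 (1.05 to 1.60). Col5a2, a chain of the type V collagen that starts fibrils, was called higher with 135 counts in knockout leukaemias and 57 in wild-type leukaemias, a ratio of 1.26 (0.81 to 1.74). Its partner Col5a1 was far more abundant and stayed under 2-fold, with 2676 counts in knockout leukaemias and 1491 in wild-type leukaemias, a ratio of 0.86 (0.77 to 0.96).

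The chains of type I collagen, the main protein of bone, were close in both pools. Col1a2 had 2465 counts in knockout leukaemias and 3237 in wild-type leukaemias, a log2 ratio of -0.37 (-0.45 to -0.30). Col1a1 had 1142 counts in knockout leukaemias and 957 in wild-type leukaemias, a ratio of 0.28 (0.15 to 0.40). Their small ratios have opposite signs and intervals that do not overlap. Col11a2, a cartilage chain, had 92 counts in knockout leukaemias and 172 in wild-type leukaemias, a ratio of -0.88 (-1.26 to -0.51). The other cartilage chain Col2a1 had 37 counts in knockout and 58 in wild-type, Col5a3 had 34 in knockout and 16 in wild-type, Col24a1 had 0 in knockout and 1 in wild-type, and Col11a1 had none.

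Set side by side, the summed basement membrane genes and the summed fibrillar genes had ratios of opposite sign, which for the fibrillar sum rests on Col27a1. The 21 genes of basement membrane collagens, laminins and nidogens held 8437 counts (79.3 CPM) in knockout leukaemias and 2591 counts (24.0 CPM) in wild-type leukaemias, a log2 ratio of 1.72 (1.66 to 1.79). The 11 fibrillar genes held 7731 counts (72.6 CPM) in knockout leukaemias and 10438 counts (96.6 CPM) in wild-type leukaemias, a ratio of -0.41 (-0.46 to -0.37). Among genes with at least 100 counts, basement membrane genes had 5 higher, 3 lower and 3 neither with a median of 0.95, and fibrillar genes had 2 higher, 1 lower and 4 neither with a median of 0.28. Both sums follow few genes. Without Col27a1, left out after its values were seen, the fibrillar sum was 6966 counts in knockout leukaemias and 6145 in wild-type leukaemias, and its ratio turned to 0.20 (0.15 to 0.25). For basement membrane genes the ratio was 0.90 without Lamc1, and 0.44 without Lamc1 and Nid2, left out in the same way. With 1 pool per genotype the difference between both groups was not tested.

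**Figure D3:**
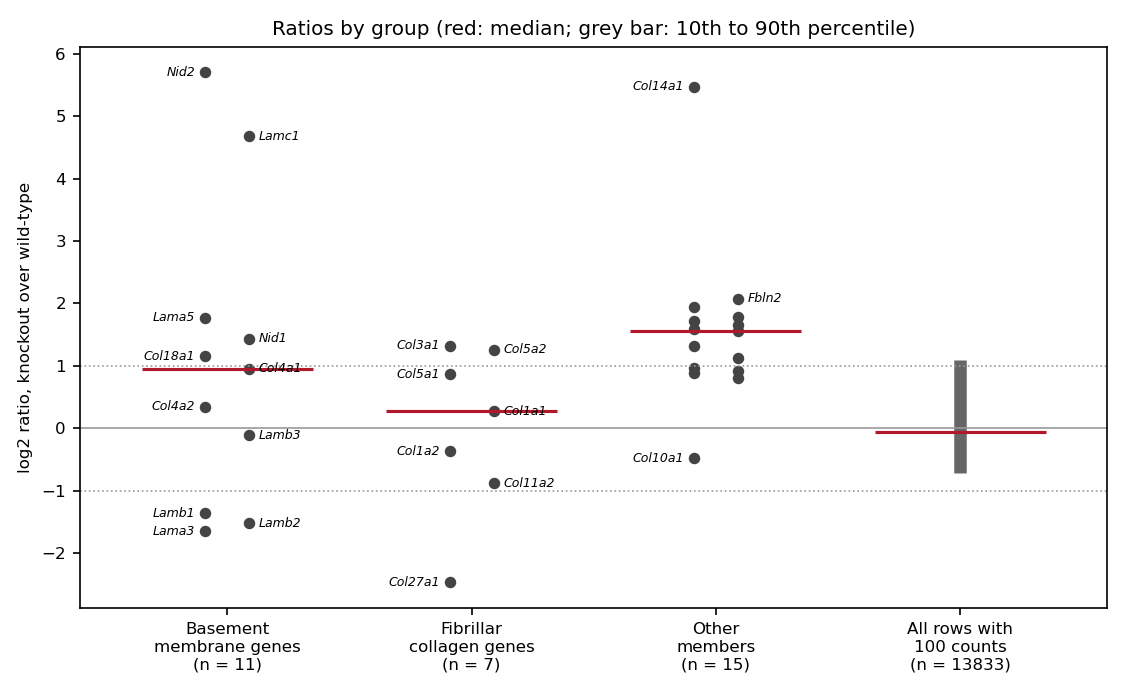
Each point is the log2 ratio of knockout over wild-type of a matrix gene with at least 100 combined counts, by group, with the group's median in red. The medians are 0.95 for 11 basement membrane genes, 0.28 for 7 fibrillar collagen genes and 1.56 for 15 other matrix genes; the grey bar spans -0.72 to 1.10, the 10th to the 90th percentile of all 13833 rows.

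Collagens that decorate fibrils were led by Col14a1. This gene (ENSMUSG00000022371, chromosome 15, 55307750 to 55520803 on the plus strand, GRCm38) encodes type XIV collagen, which binds the surface of fibrils. It had 1725 counts (16.2 CPM) in knockout leukaemias and 39 counts (0.361 CPM) in wild-type leukaemias, a 44.3-fold higher level (32.7 to 63.3) and a log2 ratio of 5.47 (5.03 to 5.99), rank 64 of 13833. The related Col12a1 had 158 counts in knockout leukaemias and 82 in wild-type leukaemias, a ratio of 0.96 (0.57 to 1.37). Col12a1 was called only with some other scalings (1.04 with TMM), and not with the upper quartile. Without Col14a1 the group held 253 counts in knockout leukaemias and 198 in wild-type leukaemias. Below 100 combined counts were Col20a1 (28 in knockout, 55 in wild-type), Col22a1 (26 in knockout, 25 in wild-type), Col9a3 (24 in knockout, 27 in wild-type), Col16a1 (17 in knockout, 5 in wild-type) and Col9a2 (0 in knockout, 4 in wild-type), and Col9a1 and Col19a1 had none.

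The chains of type VI collagen, which forms beaded filaments around cells, stood higher in knockout leukaemias by similar ratios. Col6a1 had 482 counts in knockout leukaemias and 166 in wild-type leukaemias, a log2 ratio of 1.56 (1.30 to 1.82). Col6a2 had 454 counts in knockout leukaemias and 140 in wild-type leukaemias, a ratio of 1.71 (1.44 to 2.00). Col6a3 had 90 counts in knockout leukaemias and 30 in wild-type leukaemias, a ratio of 1.59 (1.00 to 2.25). The intervals of these chains overlap. The later-found chains Col6a4, Col6a5 and Col6a6 had at most 2 counts in a pool.

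Among the remaining collagens, Col8a1, a network chain of vessels, was called higher with 141 counts in knockout leukaemias and 57 in wild-type leukaemias, a log2 ratio of 1.32 (0.87 to 1.80). Its partner Col8a2 had 3 counts in knockout leukaemias and 27 in wild-type leukaemias, too few for a call. Col10a1, the marker of hypertrophic cartilage, had 52 counts in knockout leukaemias and 74 in wild-type leukaemias, and its interval (-1.03 to 0.04) held 0. Col7a1, which anchors the epidermis, had 24 counts in knockout leukaemias and 69 in wild-type leukaemias. Col28a1 had 38 counts in knockout and 14 in wild-type, and Col23a1 had 19 in knockout and 36 in wild-type. Col13a1, Col17a1 and Col25a1 had at most 5 counts in a pool.

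Of the 68 genes, 50 matched the RefSeq promoter table (GRCm38.p6), which gives 250 bases before and 50 after a gene's start. Only the 250 bases before the start were read. Lamc1, Nid2, Col14a1, Lama3, Col5a2, Thbs1 and Fn1 are called genes that were not matched. Among called genes whose window holds no annotated exon, those with the 3 largest ratios and Col27a1, the one called lower, are shown for the contrast in CG pairs between them. Each runs 5′ to 3′ on the gene's strand, with CG pairs in capitals.
Lama5, chr2:180225860-180226109, minus strand: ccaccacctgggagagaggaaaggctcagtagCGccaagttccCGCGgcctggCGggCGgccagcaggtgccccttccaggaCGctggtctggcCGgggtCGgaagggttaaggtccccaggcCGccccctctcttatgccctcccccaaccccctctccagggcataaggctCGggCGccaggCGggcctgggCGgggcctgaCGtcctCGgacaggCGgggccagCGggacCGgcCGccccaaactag
Col6a2, chr10:76623631-76623880, minus strand: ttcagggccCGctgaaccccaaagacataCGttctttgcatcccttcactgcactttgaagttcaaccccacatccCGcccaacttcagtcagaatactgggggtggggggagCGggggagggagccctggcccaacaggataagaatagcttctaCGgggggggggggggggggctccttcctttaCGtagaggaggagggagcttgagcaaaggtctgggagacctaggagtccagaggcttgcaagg
Col6a3, chr1:90843972-90844221, minus strand: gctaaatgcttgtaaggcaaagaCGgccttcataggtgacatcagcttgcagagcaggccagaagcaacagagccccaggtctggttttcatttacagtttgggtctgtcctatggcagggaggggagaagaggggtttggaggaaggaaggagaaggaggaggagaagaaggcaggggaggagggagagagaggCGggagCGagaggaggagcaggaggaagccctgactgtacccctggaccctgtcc
Col27a1, chr4:63215162-63215411, plus strand: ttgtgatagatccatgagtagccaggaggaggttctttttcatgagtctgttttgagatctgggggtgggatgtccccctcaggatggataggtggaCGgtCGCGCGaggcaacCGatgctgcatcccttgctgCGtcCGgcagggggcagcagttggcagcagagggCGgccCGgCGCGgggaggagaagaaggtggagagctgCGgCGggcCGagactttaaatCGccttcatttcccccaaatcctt

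These windows hold 19 CG pairs for Lama5, 6 for Col6a2, 3 for Col6a3 and 15 for Col27a1. The RefSeq start used for Col27a1 lies 1408 bases from the GENCODE start of that gene. That distance was 0 for Lama5, Col6a2 and Col6a3. Among matched genes not shown it was 1555 for Fbn1, 3103 for Sparc and up to 94295 for Lamb3. Each matrix gene entered with 1 window, the one nearest its GENCODE start, while all windows means every entry, whether or not a gene has several. Over all 32841 promoter windows of the same length the median was 6 CG pairs, over the 50 matched matrix genes 9.5, over the 11 called higher 8 and over the 3 called lower 14. The motif GGGCGG, searched on both strands, was in 29 of 50 matrix gene windows (58.0%), 7 of 11 called higher and 2 of 3 called lower, against 32.7% of all windows. TATAAA, searched on both strands, was in 6 of 50, among them that of Col3a1, against 12.4% of all windows. These are letters in a window and no measure of binding.

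The genes named Fbln or Fbn that reached 100 counts, 4 in all, had positive ratios. Fbln1, which binds fibronectin and basement membranes, was the most abundant matrix gene in knockout leukaemias, with 5549 counts (52.1 CPM). In wild-type leukaemias it had 3051 counts (28.2 CPM), fewer than Col27a1 (4293 counts) and Col1a2 (3237 counts). The log2 ratio of Fbln1, 0.88 (0.82 to 0.95), stayed under 2-fold. Fbln2 was called higher with 994 counts in knockout leukaemias and 239 in wild-type leukaemias, a ratio of 2.08 (1.87 to 2.29). Fbn1, the backbone of microfibrils, was called higher with 187 counts in knockout leukaemias and 60 in wild-type leukaemias, a ratio of 1.65 (1.23 to 2.11). Fbln5, needed for elastic fibres, had 186 counts in knockout leukaemias and 100 in wild-type leukaemias, a ratio of 0.91 (0.56 to 1.28). Fbn2 had 4 counts in knockout and 1 in wild-type, and Fbln7 had 3 in knockout and 0 in wild-type.

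Fn1, Sparc and Thbs1, whose proteins are laid down during adhesion and repair, were also called higher. Fn1, fibronectin, had 1863 counts (17.5 CPM) in knockout leukaemias and 551 counts (5.10 CPM) in wild-type leukaemias, a log2 ratio of 1.78 (1.64 to 1.92). Sparc, a collagen-binding protein of bone and platelets, had 1662 counts in knockout leukaemias and 770 in wild-type leukaemias, a ratio of 1.13 (1.01 to 1.26). Thbs1, the thrombospondin stored in platelets, had 794 counts in knockout leukaemias and 209 in wild-type leukaemias, a ratio of 1.94 (1.73 to 2.17). Thbs2 had 80 counts in knockout leukaemias and 46 in wild-type leukaemias, a ratio of 0.81 (0.28 to 1.38). Thbs3 had 40 counts in knockout and 37 in wild-type, and Thbs4 had 2 in each pool.

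Ranked by level per kilobase of exon, Fbln1 was first in both pools, at 11.9 CPM per kb in knockout leukaemias and 6.47 in wild-type leukaemias. In knockout leukaemias Lamc1 (4.51), Sparc (4.12), Col5a1 (2.96), Col14a1 (2.31) and Nid2 (2.28) came next. Wild-type leukaemias had Col27a1 (3.05), Col1a2 (2.41), Sparc (1.88), Col5a1 (1.63) and Col1a1 (1.35) next, while Lamc1 was at rank 18, Col14a1 at 37 and Nid2 at 41 there. Col27a1 stood at rank 14 in knockout leukaemias, at 0.552 CPM per kb. Neighbours in these orders can lie close together, as Col14a1 and Nid2 did in knockout leukaemias.

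Chains that assemble with each other were compared within a pool, per kilobase of exon. Lamc1 was at 21.2 times (18.6 to 24.4) the level of Lamb1 in knockout leukaemias and at 0.321 times (0.268 to 0.384) in wild-type leukaemias. For Col1a1 over Col1a2 the ratio was 0.877 (0.817 to 0.941) in knockout leukaemias and 0.560 (0.520 to 0.602) in wild-type leukaemias. For Col4a1 over Col4a2 it was 1.12 (0.956 to 1.31) in knockout leukaemias and 0.735 (0.603 to 0.895) in wild-type leukaemias. The intervals of the type VI ratios overlapped between the pools. Col6a1 over Col6a2 was 2.02 (1.77 to 2.30) in knockout leukaemias and 2.25 (1.79 to 2.84) in wild-type leukaemias. Col6a1 over Col6a3 was 14.6 (11.7 to 18.5) in knockout leukaemias and 15.1 (10.2 to 23.1) in wild-type leukaemias. Exon lengths sum all annotated transcripts and may exceed those used in these cells. This moves a chain ratio by the same factor in both pools only if both use the same transcripts, which was not tested. The laminin class shares above can move by different amounts in each pool.

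**Figure D4:**
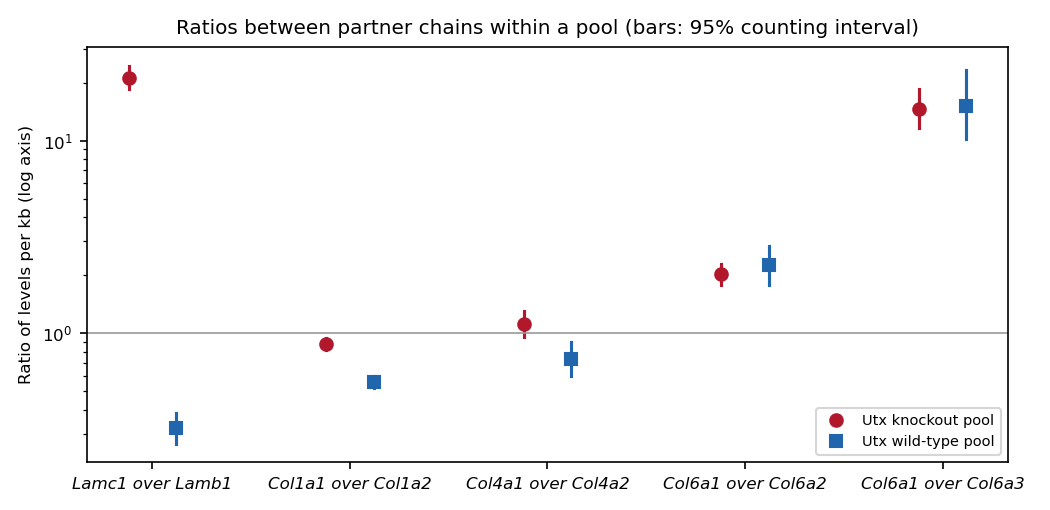
Ratio of the levels per kilobase of partner chains within the Utx knockout pool (red circles) and the Utx wild-type pool (blue squares), on a log axis, with exact 95% counting intervals. Lamc1 over Lamb1 is 21.2 for knockout and 0.321 for wild-type, while both type VI ratios overlap between the pools.

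Several chains sit side by side in the genome (GENCODE M21). Col4a1 and Col4a2 lie head to head on chromosome 8 with exons that overlap by 22 bases, and their ratios were 0.95 and 0.35. Col6a1 and Col6a2 lie on the same strand of chromosome 10, 85161 bases apart, with ratios of 1.56 and 1.71. Col3a1 and Col5a2 lie tail to tail on chromosome 1, 24614 bases apart, with ratios of 1.32 and 1.26.

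Enzymes that fold, trim and cross-link collagen were compared from lists written with earlier results of these data known, and the shares to set beside the counts of these and the following lists are the 11.2% of all rows called higher and 5.36% called lower. The folding and modification list had 16 genes with at least 100 counts, 4 of them higher, 1 lower and 11 uncalled, and a median log2 ratio of -0.07. The higher ones were P4ha3, a prolyl hydroxylase subunit (2.84, 2.40 to 3.34), the lysyl hydroxylase genes Plod2 (2.23, 2.15 to 2.31; 7138 knockout against 1548 wild-type counts) and Plod1 (1.25, 1.01 to 1.49), and Serpinh1, the collagen chaperone (1.19, 0.89 to 1.51). Leprel2, a prolyl 3-hydroxylase, was lower at -1.08 (-1.43 to -0.75). That call ended, at -0.996, when mitochondrial, erythroid and receptor segment rows were left out of the depth. Of 10 processing and cross-linking genes 5 were higher and none lower, with a median of 0.98. They were Adamts14 (3.69; 235 knockout against 18 wild-type counts) and Adamts2 (1.26), which cut the amino end of procollagen, the lysyl oxidase genes Lox (1.48) and Loxl1 (1.19), and Pcolce (1.09), an enhancer of procollagen cleavage. The lowest was Loxl2 at 0.40.

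Other matrix proteins and receptors were mixed. Of 7 further basement membrane genes 3 were higher, Smoc2 (3.44; 325 knockout against 30 wild-type counts), Fras1 (2.30) and Tinagl1 (1.28), none was lower and the median was 0.73. Hspg2, the perlecan of basement membranes, was lowest at 0.02 with 85 counts in each pool. Of 11 further fibril and elastic matrix genes 5 were higher: Ltbp1 (1.97), Vcan (1.75), Dcn (1.68), Bgn (1.28) and Ltbp2 (1.27). Emilin1 was lower at -1.01, which was -0.93 and no call with TMM, and the median was 0.64. Of 13 matrix receptor genes 5 were higher and none lower, with a median of 0.15. The collagen-binding integrin gene Itga2 led at 2.98 (2.57 to 3.44; 400 knockout against 51 wild-type counts), followed by the fibronectin receptor Itga5 (1.32), Itgb3 (1.11), the collagen receptor Lair1 (1.11) and Itga2b (1.02). The laminin-binding Itga6 was lowest at -0.81, and Itgb1, the beta chain shared by most matrix integrins, was at 0.08.

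Markers of cells that make or carry matrix differed between the pools as well, and their part in the ratios above was not tested. Of all rows with 100 counts, 11.2% were called higher and 5.36% lower. Of the 12 mesenchymal stroma markers 8 had 100 counts, of which 6 were higher and 2 lower, with a median of 1.69. Cxcl12 (2.92), Pdgfra (2.50), Kitl (2.16), Mmp2 (1.70), Prrx1 (1.67) and Lepr (1.42) were higher, and Ngfr (-3.41) and Pdgfrb (-1.48) lower. Their sum was 57.9 CPM in knockout leukaemias and 96.8 CPM in wild-type leukaemias, of which Pdgfrb took 54.7% in knockout leukaemias and 91.1% in wild-type leukaemias. Without Pdgfrb the sum was 2795 counts in knockout leukaemias and 927 in wild-type leukaemias, a log2 ratio of 1.61 (1.51 to 1.72). No marker of this list was at 0.

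Of 12 endothelial markers 9 had 100 counts, with 4 higher (Emcn 1.66, Stab2 1.64, Esam 1.23, Flt1 1.04), none lower and a median of 0.82. Pecam1, which leukocytes also express, was lowest at 0.22, and the summed list stood at 88.0 CPM in knockout leukaemias and 69.4 CPM in wild-type leukaemias. Of 7 osteoblast markers 4 had 100 counts: Runx2, a gene also active in T cells, was higher (2.11), Alpl was lower (-1.77), and the median was 0.24. The list summed to 64.6 CPM in knockout leukaemias and 40.8 CPM in wild-type leukaemias, of which Runx2 took 68.3% in knockout leukaemias and 25.0% in wild-type leukaemias. Without Runx2 the log2 ratio of the sum was -0.58 (-0.66 to -0.50). Ibsp and Phex also had 100 counts and were not called. Ibsp had 1785 counts in knockout leukaemias and 2426 in wild-type leukaemias, a ratio of -0.42 (-0.51 to -0.33). Phex had 152 counts in knockout and 82 in wild-type, a ratio of 0.91 (0.51 to 1.32). The other bone genes were near or at 0. Sp7 had 16 counts in knockout and 1 in wild-type, Bglap had 0 in knockout and 4 in wild-type, and Dmp1 had none.

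Of 10 macrophage markers 9 had 100 counts and 8 were higher, with Marco highest (2.43), Cd163 lowest (0.74) and a median of 1.61. The list summed to 245 CPM in knockout leukaemias and 79.3 CPM in wild-type leukaemias. Of 10 megakaryocyte and platelet markers 8 had 100 counts and 5 were higher: Ppbp (2.66), Tubb1 (2.08), Pf4 (1.96), Gp5 (1.32) and Itga2b (1.02). Gp1bb was lowest at 0.11, and the list summed to 29.2 CPM in knockout leukaemias and 11.9 CPM in wild-type leukaemias. Neutrophil markers had 2 of 8 higher, Mmp8 (1.16) and Mpo (1.07), with Ngp lowest at -0.09. Erythroid markers had 3 of 8 higher, Alas2 (1.33), Hba-a1 (1.27) and Hba-a2 (1.11), whose alpha globin copies share reads. Hbb-b1, at 1.00 just under the limit, was also called with TMM (1.08). Both epithelial markers with 100 counts were lower, Epcam (-1.88) and Cdh1 (-1.28), and the keratin genes Krt5, Krt8 and Krt14 had at most 2 counts in a pool, with Krt18 at 23 in knockout and 34 in wild-type. Of 15 T cell markers Rag1 was higher (1.60), Thy1 was lower (-1.06, and -0.98 with no call under TMM), and the median was -0.15.

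**Figure D5:**
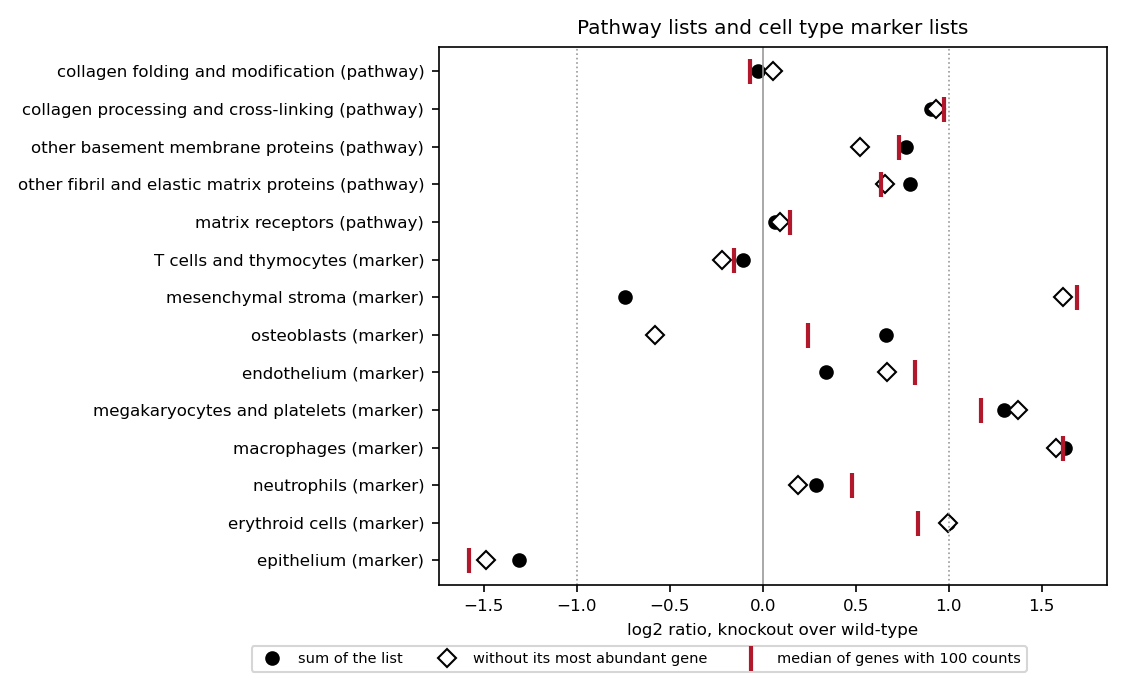
For each pathway or marker list, the log2 ratio of knockout over wild-type of its summed counts (black circles), of the sum without its most abundant gene (open diamonds) and the median of its genes with at least 100 counts (red bars). Macrophage and megakaryocyte lists lie above 1 on all measures, while the stromal list moves from -0.74 to 1.61 without Pdgfrb.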

How the data were processed

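RNA of Notch1-IC leukaemias was sequenced as single reads of 50 bases from strand-marked libraries, per the labels' protocols, after poly(A) selection, with depletion of ribosomal RNA as the other route in the series' design text. CASAVA, TopHat and the build mm9 are named in the submitters' processing notes; no source used here gives the annotation, the counting tool or its strand setting. The deposited table, made by the authors with DEGseq per the series' design text, holds 2 columns of raw counts summed over libraries of a genotype, and which samples entered a pool is not given. The first column was taken as the Utx knockout pool, from the order in which the deposited comparison names the genotypes, and checked with Kdm6a. The log2 fold changes, the score (a z value) and the p-values and q-values deposited by the authors are those of their DEGseq comparison, of which only the Benjamini-Hochberg q was used, as an alternative.

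CPM, ratios, exact 95% intervals and calls were computed as described above (Python 3.11.15, scipy 1.17.1), with scaling alternatives from edgeR 4.0.16 and DESeq2 1.42.0. No count model across replicates could be run on pooled columns. The median half-width of the intervals was 0.52 on the log2 scale for the 7 genes of 100 to 199 counts and 0.13 for the 13 most abundant. Reads are not independent molecules, so intervals may be too narrow. Calls and intervals were tested on counts simulated with counting error only, which cannot show how they hold between animals. All 68 genes matched GENCODE M21 (GRCm38) by identifier, which gave positions and exon lengths. Every matrix gene with 100 counts was named, and of each list the called genes, the highest and the lowest; the genes and lists were chosen with earlier results of these data known. Genes named with fewer counts, and Cd3e, Itgb1, Ibsp and Phex, were named after their values were seen. Some genes of the table are not reported here.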

Additional observations from a re-analysis of the deposited data

How the results depend on the processing

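No paired analysis was possible because the deposited values are pooled per genotype and carry no replicate numbers, and for the same reason no sample could be left out. Scaling by TMM, by the median of ratios or by the upper quartile gave 17 to 19 genes higher and 4 lower. A depth without mitochondrial, erythroid and T cell receptor segment rows gave 20 higher and 4 lower. Over all 13833 rows with 100 counts, these alternatives gave 1548 to 1720 higher and 641 to 743 lower. Col4a1 and Col12a1 gained a call with each of them except the upper quartile. Fbln5 gained a call only with the depth without those rows, and none of the 33 lost one. The medians of basement membrane genes (0.95 to 1.04) and of fibrillar genes (0.27 to 0.36) kept their sign under these scalings. A pseudocount of 5 changed no call. A minimum of 500 combined counts left 11 higher and 2 lower, no minimum gave 22 and 7, and a 4-fold minimum left 4 and 1, since each changes which genes can be called. The shares of all rows called under these minimums were not computed. The deposited q of the authors called the same 21 genes in the same direction. By their mean log2 ratio instead of their median, fibrillar genes stood at 0.00053, with Col27a1 entering at -2.47. Without its most abundant gene the sum of basement membrane genes had a log2 ratio of 0.90 and that of laminins -0.57, and 3 of 9 gene groups instead of 7 kept a sum at least 2-fold higher. Without Lamc1 and Nid2, an alternative added after seeing the data, the basement membrane sum was at 0.44, and without Col27a1, also added then, the fibrillar sum turned to 0.20. Counting error alone spans about 2-fold for genes near 100 counts, and a listed 0 allows up to 3 counts, or 0.0282 CPM for knockout and 0.0278 CPM for wild-type leukaemias.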

Other observations

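The genes beside the matrix genes with the largest ratios were read from the same table, 3 on each side with at least 100 combined counts, a set chosen after the ratios of those matrix genes were known. Around Col14a1, 1 of 6 was higher: Has2, a hyaluronan synthase, 1144823 bases away, had 100 counts in knockout leukaemias and 2 in wild-type leukaemias, a log2 ratio of 5.35 (3.77 to 8.73). The other 5, among them Mtbp at 0.76 and Mrpl13 at 0.06, were not called. Around Col27a1, 2 of 6 were lower: Zfp618, 74295 bases away, had 7 counts in knockout leukaemias and 305 in wild-type leukaemias, a ratio of -5.33 (-6.75 to -4.36), and 4933430I17Rik stood at -1.70 (-2.14 to -1.30). On the other side of Col27a1, Orm1 was at 0.23 and Akna at 0.46. Around Lamc1 the median of the 6 genes was -0.09. Around Nid2, Gng2 was higher at 1.25 (1.06 to 1.45), and the median of the 6 was -0.26. Of all rows with 100 counts, 11.2% were called higher and 5.36% lower.

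Some matrix genes under 100 combined counts were seen almost wholly in knockout leukaemias. Frem2, a basement membrane protein of skin and kidney development, had 78 counts in knockout leukaemias and 1 in wild-type leukaemias. Tll2, a protease of the Bmp1 family, had 54 in knockout and 0 in wild-type, and Lama4 had 58 in knockout and 3 in wild-type. The fibulin gene Efemp1 had 36 counts in knockout leukaemias and 4 in wild-type leukaemias. The reverse was seen for Itgb4, the beta chain of hemidesmosomes, with 5 counts in knockout leukaemias and 47 in wild-type leukaemias, and for Col8a2 with 3 in knockout and 27 in wild-type. These genes were chosen after their values were seen.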
